A study of Mus musculus with 8 samples.

Results

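This account covers 4 neighbouring genes of mouse chromosome 8, Zfp42, Triml1, Triml2 and Fat1, and the stretch of replication timing profile around them, from 42500000 to 46000000 in the mm10 build. The genes were chosen by name and position, and no measured value enters the rule. They are 4 of 21074 protein-coding genes with a timing score, and the stretch holds 525 of the 316864 windows that the profiles give over 20 chromosomes. The profiles come from E14Tg2a mouse embryonic stem cells in which the insulator protein CTCF can be degraded through an auxin-inducible degron. Cells of the auxin group were kept for 2 days in 500 µM indole-3-acetic acid, an auxin, and the control group of the same experiment received none. Each group has 2 replicates, and each replicate joins a library of early and a library of late S-phase DNA labelled by a 2-hour BrdU pulse, so that 8 libraries make 4 profiles. The score is a quantile-normalised quantity per 6-kb window, and a higher score means earlier replication. Differences are given in the authors' score units, whose log base is unknown, and the SD of all windows was 2.1.

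Some features of the data limit every value that follows. The depth is unknown, since the files hold scores and no read counts. Whether the replicates are separate cultures is not stated in the labels, so the p-values measure only how far these samples spread, and that spread may be technical. There is no group of cells that lacks the degron and received auxin, so auxin and CTCF loss cannot be told apart as sources of a difference. The files hold neither RNA nor protein, so stem-cell markers and the loss of CTCF could not be checked. The scores are smooth along the chromosome: adjoining windows of the stretch differed by a median of 0.041, so neighbouring windows and bins are not independent measurements.

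CTCF binds insulator sites and, with cohesin, anchors the loops that delimit topological domains, while replication timing tends to be set over domains and not gene by gene. Zfp42 encodes REX1, a zinc finger protein of undifferentiated embryonic stem cells and early embryos that is related to YY1. It came to lie, in placental mammals, within the older regulatory domain of Fat1, whose product is a very large atypical cadherin of cell adhesion and tissue polarity. In embryonic stem cells the 2 genes are known to be kept in separate parts of that domain, whereas in embryonic limb they share it.

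Triml1 (43129806 to 43180494) and Triml2 (43180463 to 43193884) encode tripartite-motif-like proteins, overlap each other by 32 bases and share 1 window. Zfp42 (43295067 to 43307009) follows on the minus strand. Fat1 (44933100 to 45052257, plus strand) begins 1.63 Mb beyond Zfp42, and the last 1.23 Mb before it holds no protein-coding gene of the RefSeq annotation. The start regions of Zfp42 and Triml2 are shown because both lie under the early peak of the stretch and their annotated starts lie within 73 bases of the end of the gene body. Both run 5′ to 3′ on the gene's strand, from 250 bases before the start to 50 after it (RefSeq, GRCm38.p6, whose coordinates are those of mm10). Capitals mark a match to the octamer ATTTGCAT, the motif that POU factors such as POU5F1 recognise.
Zfp42, chr8:43306960-43307259, minus strand: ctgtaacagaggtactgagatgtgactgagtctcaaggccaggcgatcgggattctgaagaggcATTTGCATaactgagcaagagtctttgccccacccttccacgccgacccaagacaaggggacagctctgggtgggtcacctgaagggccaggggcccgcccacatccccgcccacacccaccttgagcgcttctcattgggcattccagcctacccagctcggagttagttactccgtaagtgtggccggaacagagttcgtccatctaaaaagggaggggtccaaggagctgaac
Triml2, chr8:43180286-43180585, plus strand: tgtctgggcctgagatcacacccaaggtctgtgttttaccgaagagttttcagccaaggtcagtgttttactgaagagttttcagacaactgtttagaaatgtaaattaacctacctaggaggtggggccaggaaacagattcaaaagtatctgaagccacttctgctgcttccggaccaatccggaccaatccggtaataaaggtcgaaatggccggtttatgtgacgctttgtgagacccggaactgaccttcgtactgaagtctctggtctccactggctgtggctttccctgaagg
The Zfp42 region holds 1 octamer match, which 1.74% of 32851 such regions do on either strand, and the Triml2 region holds 0. Zfp42 has 11 CG dinucleotides in its 300 bases and Triml2 has 9. For Triml1 and Fat1 the annotated start lies 39008 and 17108 bases inside the gene body, so their start regions are not shown.

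The 3 genes at the proximal end had scores around the middle of all genes in both groups, and Fat1 replicated later than they did. Zfp42 scored 2.17 and 2.42 in the auxin profiles, against 2.31 and 2.11 in the control profiles. Those values overlap, and the group means stood at the 57.3rd percentile of all genes with auxin and the 55.1st in control cells. Triml2 scored 2.23 and 2.21 with auxin, against 1.38 and 2.54 without it. Triml1 scored 2.01 and 2.00 with auxin, against 1.41 and 2.19 in control cells. For both genes the auxin replicates were nearly identical and lay between the 2 control replicates, of which replicate 1 was the later one. Fat1 scored 0.21 and 0.29 in auxin profiles, against -0.22 and -0.05 in control profiles. At Fat1 both auxin profiles were above both controls, and its control mean stood at the 26.9th percentile of all genes.

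**Figure D1:**
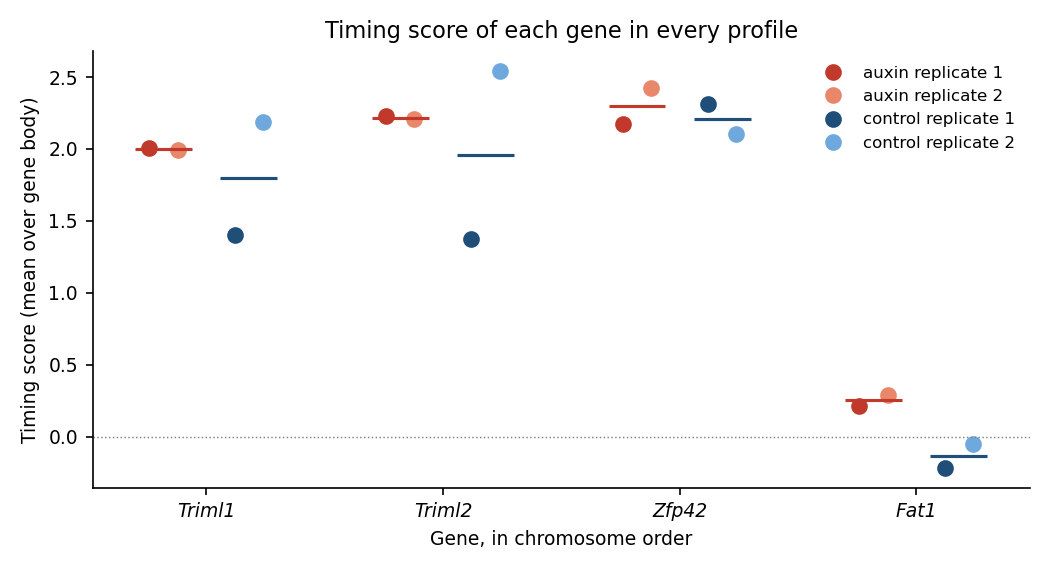
Timing score (mean over the gene body, score units) of the 4 genes in each profile, auxin replicates left and control replicates right. Horizontal lines are group means of 2 profiles. Triml1, Triml2 and Zfp42 sit between 1.38 and 2.54 in all profiles, and Fat1 between -0.22 and 0.29, with its 2 auxin points above its 2 control points.

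All 4 genes had a higher mean with auxin, a direction that 49.9% of all genes share. None of the 4 passed an adjusted p of 0.05, which 0% of all 21074 genes did in this fit (limma with treatment as the only term, Benjamini-Hochberg adjustment over all genes). At an unadjusted p under 0.05 the count was 0 of 4, against 17.1% of all genes. Fat1 averaged 0.25 ± 0.055 with auxin and -0.13 ± 0.12 in control cells (SD, n = 2 each). Its difference of 0.39 had a 95% limma interval of -0.10 to 0.87 and an adjusted p of 0.376. It stood at the 83.3rd percentile of differences over all genes and lay between 0.30 and 0.47 with each 1 profile left out. Its sign could not turn there, since the groups do not overlap. That the Fat1 profiles of the groups do not overlap, in this direction, holds for 23.9% of all genes. A score near 0 can come from cells that replicate a locus in mid S phase or from a mixture of early and late cells, which this assay cannot tell apart.

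Zfp42 averaged 2.30 ± 0.18 with auxin and 2.21 ± 0.15 in control cells (SD, n = 2 each), a difference of 0.09 with a limma interval of -0.42 to 0.60 and an adjusted p of 0.863. Its sign depended on single profiles, with -0.039 without auxin replicate 2 and -0.016 without control replicate 2. Triml2 averaged 2.22 ± 0.015 with auxin and 1.96 ± 0.83 without it, and Triml1 2.00 ± 0.0099 with auxin and 1.80 ± 0.55 without it. Their differences were 0.26 (limma interval -0.62 to 1.14, adjusted p of 0.756) and 0.21 (-0.48 to 0.89, adjusted p of 0.749). The spread between the control replicates decided both: without control replicate 1 the differences were -0.33 at Triml2 and -0.19 at Triml1, and without control replicate 2 they were 0.84 and 0.60. The intervals of all 4 genes extend to 0.60 or beyond, so earlier replication by that much is within the error at each.

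With auxin the order of the means, from early to late, was Zfp42, Triml2, Triml1 and Fat1, and in control cells it was the same. In control cells the first 3 did not differ from each other beyond their spread, and with auxin Triml1 was the latest of the 3 in both profiles. Triml1 minus Triml2 was -0.21 ± 0.0054 with auxin and -0.16 ± 0.27 in control cells. Triml2 minus Zfp42 was -0.08 ± 0.19 with auxin and -0.25 ± 0.97 in control cells, and Triml1 minus Zfp42 was -0.29 ± 0.19 with auxin and -0.41 ± 0.70 in control cells (SD, n = 2 each). The step from Zfp42 to Fat1, by contrast, was present in every profile. Zfp42 was above Fat1 by 1.96 and 2.13 in auxin profiles, against 2.53 and 2.15 in control profiles. The groups do not overlap, but auxin replicate 2 and control replicate 2 are nearly equal. The mean step was smaller by 0.30 with auxin (-0.30 as a difference, exact permutation test of 4 profiles, two-sided p of 0.333, the smallest that 2 against 2 can give). That difference was -0.11 without control replicate 1 and -0.49 without control replicate 2. The steps from Triml1 and Triml2 down to Fat1 differed by -0.18 and -0.13, each with overlapping groups and an exact permutation p of 1.

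At the level of single windows, the 2 windows of Zfp42 had differences of 0.07 and 0.11. They end at 43302000, so the part of Zfp42 from there to its start site at 43307009 was not measured. With the gene body widened by 25 kb the Zfp42 difference was 0.19 (limma adjusted p of 0.610). The 3 windows of Triml2 ranged between 0.24 and 0.27. Over the 8 windows of Triml1 the difference was 0.06 at the proximal end and 0.27 at the Triml2 end. Near that end control replicate 1 dipped to 1.27 (the window at 43170001). All 21 windows of Fat1 had both auxin profiles above both controls, as 26.3% of all windows do, and adjoining windows are not independent observations. The Fat1 differences were not even: 0.62 at the window over its proximal end, 0.09 near 44970001, and 0.55 at 45018001. At the proximal window the scores were 0.49 and 0.63 with auxin, against -0.30 and 0.18 in control cells. Of the 525 windows of the stretch, 456 were higher with auxin, beside 50.7% of all windows. None passed in the limma fit over all windows, which called 0.999% of them.

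The profile itself has the form of 2 peaks and a late trough between them. The peak over Triml1, Triml2 and Zfp42 crossed 0 on its proximal side 171 and 140 kb before Triml1 with auxin, against 139 and 131 kb in control cells. On its distal side it crossed 0 at 336 and 317 kb beyond the Zfp42 start with auxin, against 266 and 291 kb in control cells. On both sides the auxin crossings lay farther out than the control crossings, on the proximal side by little more than 1 kb between the nearest 2 profiles. The early peak was thus 684 and 634 kb wide at a score of 0 with auxin, against 582 and 600 kb in control cells. Its highest 50-kb bin scored 2.42 and 2.57 with auxin and 2.20 and 2.55 in control cells, which overlap. That bin began at 43350001 in both auxin profiles, distal of Zfp42, and at 43250001 and 43200001 in the control profiles.

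**Figure D2:**
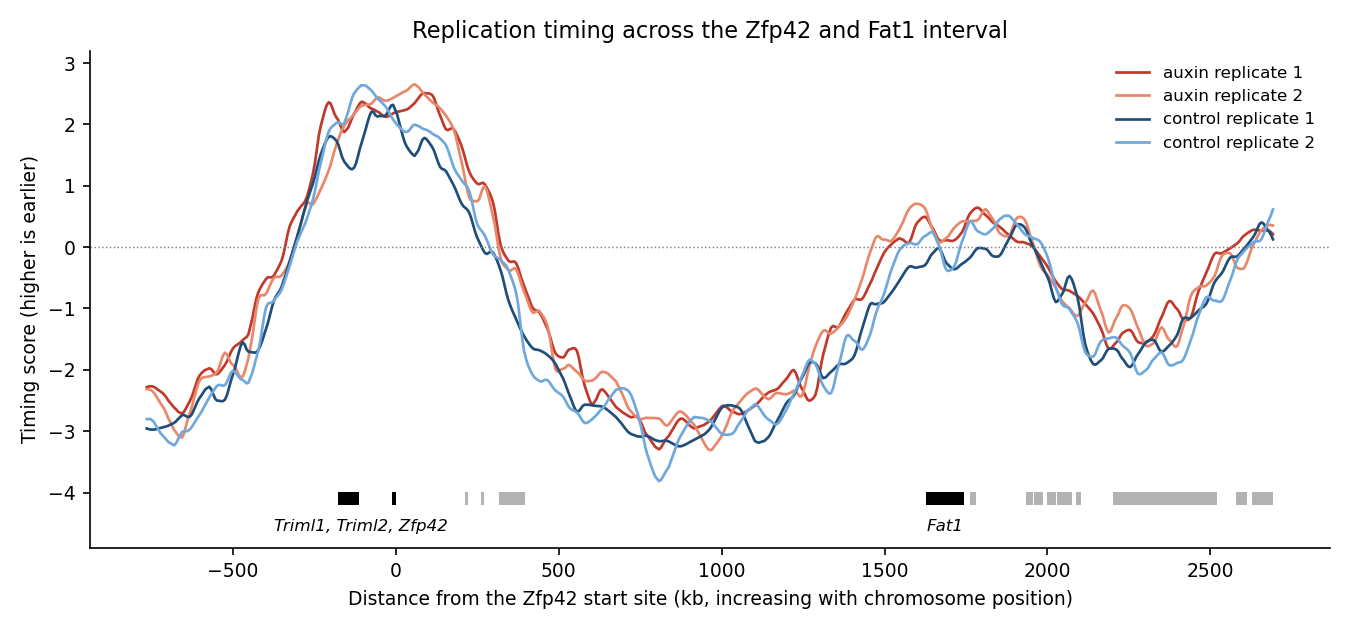
Timing score (higher is earlier) of the 6-kb windows against distance from the Zfp42 start site in kb, for 2 auxin and 2 control profiles. Black bars below are the 4 genes (Triml1, Triml2 and Zfp42 at left, Fat1 at right) and grey bars are other protein-coding genes. The auxin profiles lie above the control profiles on the distal side of the Zfp42 peak and on the proximal side of the Fat1 peak. In 50-kb means they also do so from 42850001 to 43000000, on the proximal side of the Zfp42 peak.

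Between the peaks lies a late trough, whose lowest bin scored -3.20 and -3.24 in auxin profiles, against -3.23 and -3.71 in control profiles. The depth of the trough thus overlapped between the groups. On the Fat1 side the profile reached a highest bin of 0.57 and 0.60 with auxin, against 0.32 and 0.47 in control cells. It first crossed 0 at 111 and 162 kb before the Fat1 start with auxin. In control cells it first crossed 62.1 kb before that start in replicate 2 but at -232 kb, hence beyond the distal end of Fat1, in replicate 1. Control replicate 2 then fell back below 0 over Fat1, with -0.04 and -0.17 in the bins at 44950001 and 45000001. In the bin at 45050001 it was at 0.33. In the stretch from trough to trough around Fat1, 9 and 10 bins were above 0 with auxin, against 2 and 7 in control cells. The distal crossings of the Fat1 peak overlapped between the groups, at 45247922 and 45262693 with auxin and at 45260394 and 45282958 in control cells.

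The steepest gradients, taken over 200 kb, were 14.0 and 12.9 score units per Mb on the proximal side of the Zfp42 peak with auxin, against 15.7 and 15.7 in control cells. On the distal side of the Fat1 peak they were 6.61 and 6.58 with auxin, against 9.35 and 9.68 in control cells. On the proximal side of Fat1 they were 10.01 and 10.1 with auxin, against 7.67 and 9.31 in control cells. The distal side of the Zfp42 peak overlapped, with 11.95 and 12.2 with auxin, against 11.3 and 14.8 in control cells. Over 400 kb the groups overlapped on all 4 sides. The differences were then -0.14 in place of -2.26 proximal of Zfp42, 0.23 in place of 1.56 proximal of Fat1 and -0.40 in place of -2.92 distal of it, and distal of Zfp42 the sign turned, with 0.37 in place of -0.93.

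Averaged over bins of 50 kb, the stretch leaned toward earlier replication with auxin without any bin passing the test. Of its 68 bins with at least 3 windows, 61 had a higher mean with auxin, against 50.5% of all 42710 bins, and between 57 and 61 did so without any 1 profile. In 44 of the 68 both auxin profiles were above both controls, which is 64.7% beside 26.4% over the genome. In limma 0 of the 68 bins passed an adjusted p of 0.05, against 1.66% of all bins and 0.637% of all bins in the higher direction, and the smallest adjusted p was 0.069. At an unadjusted p under 0.05 there were 22, all higher with auxin, beside 10.6% of all bins for that direction. With a trended, robust variance limma called 12 of the 68, all higher, beside 5.17% over the genome. The mean over the 525 windows was -0.58 and -0.61 with auxin, against -0.97 and -0.94 in control cells, a difference of 0.36 (exact permutation p of 0.333, two-sided, the smallest possible). Over the whole of chromosome 8 the mean differed by -0.02.

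**Figure D3:**
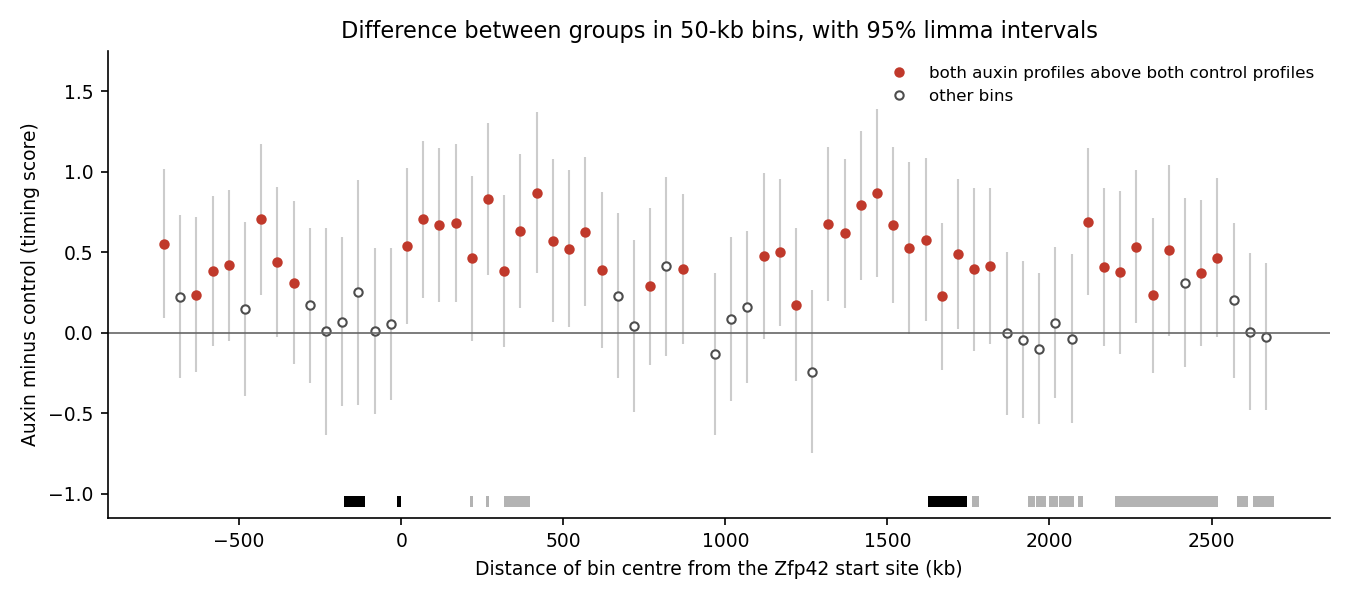
Auxin minus control in 50-kb bins (score units, with 95% limma intervals) against distance of the bin centre from the Zfp42 start site in kb. Filled points are the 44 bins in which both auxin profiles lie above both control profiles, and bars at the bottom are the genes. Differences lie between 0.01 and 0.25 in the bins from 43100001 to 43300000, over Triml1, Triml2 and the end of Zfp42. They reach 0.87 on the distal flank of Zfp42 and on the proximal flank of Fat1, and 0.70 on the proximal flank of the Zfp42 peak.

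The differences were not spread evenly. Runs and single bins were singled out with their values in view, so they are a description with no test. Over the 5 bins from Triml1 to Zfp42 the median difference was 0.07. The longest run of bins with both auxin profiles above both controls began at the bin that holds the Zfp42 start and covered 650 kb (43300001 to 43950000). In that first bin the 5 windows measured all lie beyond the gene, and the difference was 0.54. The 2 windows of Zfp42 itself differed by 0.07 and 0.11, with overlapping groups. The run averaged 0.18 with auxin and -0.42 in control cells, with differences between 0.38 and 0.87. Its 13 bins include 6 of the 12 called with a trended, robust variance. The next run, 550 kb long (44600001 to 45150000), led up to and across Fat1 and averaged -0.12 with auxin and -0.68 in control cells, with 4 of the 12. Its bin at 44750001 had the largest difference of the stretch, with -0.41 and 0.06 in auxin profiles, against -0.93 and -1.16 in control profiles. On the distal flank of Zfp42 the bin at 43700001 was as large, with -0.94 and -0.99 with auxin, against -1.62 and -2.05 in control cells. Between the runs the bins were mixed. The groups overlapped at 43950001, 44000001, 44100001, 44250001, 44300001 and 44350001, with differences between -0.13 and 0.41. Both auxin profiles were above both controls at 44050001, 44150001, 44400001, 44450001 and 44500001, with differences between 0.17 and 0.50. At 44550001 both auxin profiles were below both controls, with a difference of -0.24. The outer flank of the Zfp42 peak also had bins with both auxin profiles above both controls, at 42850001, 42900001 and 42950001. Their differences were 0.70, 0.44 and 0.31, and the first was called with a trended, robust variance. Proximal to Triml1 this held for 7 of 11 bins, beside 26.4% of all bins, and the median difference was 0.31.

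The differences at the other 17 protein-coding genes of the stretch were largest on the distal flank of Zfp42. Of the 17, 13 had a higher mean with auxin, beside 49.9% of all genes. In limma 0 passed and 2 had an unadjusted p under 0.05, which is no larger a share than the 17.1% of all genes. Adam26a, a gene of the ADAM metallopeptidase family, scored 1.04 and 0.92 with auxin, against -0.01 and 0.25 in control cells. Its difference of 0.86 (limma interval 0.36 to 1.37) had an adjusted p of 0.173. Gm5347, a predicted gene nearer the trough, scored -0.41 and -0.51 with auxin, against -1.29 and -1.12 without it, a difference of 0.74 with an adjusted p of 0.181. With a trended, robust variance limma called these 2 genes (adjusted p of 0.0186 and 0.0389), as it did 5.31% of all genes and 2.01% in that direction. Adam26b, which lies between Zfp42 and Adam26a, differed by 0.37, and Adam34l, whose body contains Gm5347 and shares its windows, by 0.49 (adjusted p of 0.464 and 0.301). The Adam26b difference was 0.18 without auxin replicate 1 and 0.19 without control replicate 1, and 0.56 without replicate 2 of either group.

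**Figure D4:**
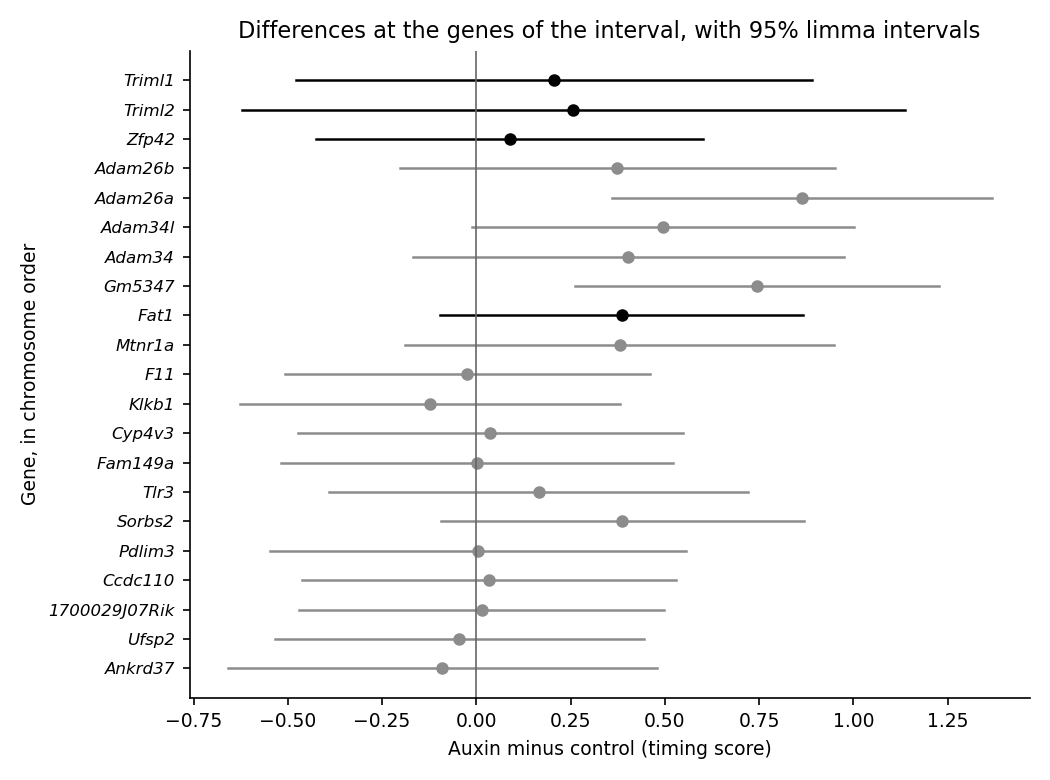
Auxin minus control (score units, with 95% limma intervals) for the 21 protein-coding genes of the stretch, in chromosome order from top to bottom. The 4 chosen genes are black. The interval lies above 0 for Adam26a and Gm5347 and includes 0 for each of the others.

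Next to Fat1 the difference was of similar size, and beyond it the groups overlapped in the 5 bins from 45150001 to 45400000. Mtnr1a, the melatonin receptor gene next to Fat1, scored 0.60 and 0.43 with auxin, against -0.11 and 0.37 in control cells, a difference of 0.38 (adjusted p of 0.452) that was 0.14 without control replicate 1 and 0.62 without control replicate 2. At F11, the coagulation factor gene that follows, the scores were 0.04 and 0.23 with auxin and 0.15 and 0.17 without it, a difference of -0.02. Farther out, a run of 6 bins (45400001 to 45700000) again had both auxin profiles above both controls, with a mean difference of 0.46. The lowest gene differences of the stretch were at Klkb1, the gene of plasma kallikrein, with -0.12, and at Ankrd37 and Ufsp2 near the distal end, with -0.09 and -0.04. None of these 3 had groups that stand apart. Over the 17 genes the median difference was 0.04, beside -0.00043 over all genes.

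Genes of the pathways of Zfp42 and Fat1 on any chromosome were read from the same fit. Of 6 FAT and Dachsous cadherin pathway genes, 3 were higher and 3 lower with auxin, while 49.9% of all genes were higher. None of the 6 passed, as 0% of all genes did. At an unadjusted p under 0.05 there were 2, beside 17.1% of all genes, and a trended, robust variance called the same 2, both lower, beside 3.3% of all genes in that direction. Those 2 were Fjx1, whose Drosophila relative phosphorylates Fat and Dachsous, with 0.15 ± 0.25 with auxin and 0.92 ± 0.036 in control cells, and the cadherin gene Dchs1, with -0.45 ± 0.26 with auxin and 0.26 ± 0.028 in control cells (SD, n = 2 each). Their limma adjusted p were 0.183 and 0.21. The 3 other FAT cadherin genes were higher with auxin, by 0.48 at Fat2, 0.31 at Fat4 and 0.16 at Fat3, and Dchs2 differed by -0.36. Among the REX1 relatives Yy1 and Yy2 and Rlim, the gene of a ubiquitin ligase that targets REX1, none passed, as 0% of all genes did. Of these 3 genes 0 were higher with auxin, beside 49.9% of all genes. In limma 1 of them, Yy1, had an unadjusted p under 0.05, beside 17.1% of all genes. The largest difference there was at Yy1, with 2.43 ± 0.17 with auxin and 3.29 ± 0.19 in control cells (limma adjusted p of 0.175). Yy2 differed by -0.16 and Rlim by -0.03. Of 12 pluripotency genes 10 were higher with auxin, beside 49.9% of all genes, and none passed, as 0% of all genes did. None had an unadjusted p under 0.05 in limma, beside 17.1% of all genes. The median difference of the 12 was 0.27, beside -0.00043 over all genes. Their largest differences were 0.61 at Klf2, which overlaps no window and takes the nearest one, and 0.50 at Klf4. Without auxin replicate 1 the Klf2 difference was 0.26, and without auxin replicate 2 it was 0.96.

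The genes on other chromosomes whose 4 scores came closest to those of Zfp42, among 12322 with at least 3 windows, were Pitx1, Zfp395 and Uchl1, with a root mean square difference of 0.048, 0.054 and 0.055 over the 4 profiles. Closest to Fat1 were Lig1, Tmem29 and Sgpp2, with 0.067, 0.086 and 0.10. Lig1 scored 0.12 and 0.22 with auxin, against -0.16 and -0.08 in control cells. Since these genes were picked on the 4 scores themselves, their likeness is a description with no test.

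The authors deposited lists of regions that replicate later or earlier with auxin. None of the 63 early-to-late and 22 late-to-early regions of the authors' deposited tables lies in the stretch. The labels of these lists appear to carry cutoffs on significance and on the size of the difference, which are not explained. The largest bin difference of the stretch was 0.87, and smaller differences may not be listed. Absence from the lists therefore does not show that timing was unchanged. The nearest, an early-to-late region on the same chromosome in the authors' deposited table (31128000 to 31260000), ends 12.04 Mb before Zfp42.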

How the data were processed

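Per the labels' protocols, cells were sorted by DNA content into early and late S phase and their BrdU-labelled DNA was pulled down and sequenced. The submitters' processing notes name the mm10 build, Bowtie2, SAMtools and bedtools; the sources used here give no versions, filters, smoothing or formula that joins the libraries. The authors deposited a timing score per window and profile. The deposited score columns were quantile normalised: sorted, all 4 are identical, so a genome-wide shift cannot be seen. Higher is earlier because all 63 early-to-late regions score lower with auxin.

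Gene coordinates came from RefSeq (GRCm38.p6). A deposited position was taken as the start of its 6-kb window. A gene's score was the mean of the windows that overlap it, or the nearest within 50 kb (1063 genes); bins of 50 kb with at least 3 windows were tested. The groups were compared with limma 3.58.1 (R 4.3.3, lmFit and eBayes, 2 residual degrees of freedom), fitted over all genes or bins. A trial of the fit on simulated data drew independent noise for each gene or bin. It therefore does not cover scores that are smooth along the chromosome. Single values used exact permutation of the 4 profiles. Edges and gradients came from 50-kb bins, edges by linear interpolation at a score of 0. Named genes were the 4 genes, the neighbours of Zfp42 and Fat1, the 3 largest differences in each direction in the stretch, any called gene, the 2 largest of each list and the 3 most like Zfp42 and Fat1. Genes, lists and tests were chosen with earlier results of these data known. Alternatives changed the variance model, the pairing, the window limit, the gene extent, the summary, the centring, the bins, the slope width and the profiles used.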

Additional observations from a re-analysis of the deposited data

How the results depend on the processing

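In limma the 4 gene differences stayed short of the threshold with the trended, robust variance, the replicate block and the median of windows. The same held for bodies widened by 25 kb, centring on the chromosome median and single windows. It also held for the limit of 3 windows, which Zfp42, with 2, does not meet. The fit reported and the block called 0 of all 21074 genes, so missing the threshold there says little about these 4. The trended, robust variance called 5.31% of all genes, and the fit of single windows called 0.999% of all windows. The shares of all genes under the other alternatives are not given here. Bins of 100 kb, shifted bins, all bins and centring also gave 0 called bins in the stretch. The fit reported called 1.66% of all bins, and 0 of 68 lies near that share. The shares over the genome under these alternatives are not given here. Without 1 profile the difference ranged from -0.039 to 0.21 at Zfp42, from -0.19 to 0.60 at Triml1, from -0.33 to 0.84 at Triml2 and from 0.30 to 0.47 at Fat1. It ranged from -0.26 to 0.016 at Klkb1, from -0.33 to 0.15 at Ankrd37, from -0.15 to 0.058 at Ufsp2, from -0.12 to 0.073 at F11 and from -0.61 to 0.29 at Yy2. Also without 1 profile, the difference in the step between Zfp42 and Fat1 stayed between -0.49 and -0.11 and the mean difference of the stretch between 0.34 and 0.38 (0.43 with the median of windows). With a trended, robust variance limma called 12 bins and 2 neighbouring genes, against 0 and 0 in the fit reported, and with the replicate block 3 bins (2358 of all 42710); the cause was not tested. The block rests on replicate numbers that the labels do not tie to a shared day or culture. Deviations of same-numbered profiles correlated at 0.038 over all bins and at 0.21 over the 68 bins of the stretch. The block changed no gene's call and left the difference in the Zfp42 to Fat1 step at -0.30. Its exact sign-flip permutation test of 2 pairs gave a two-sided p of 0.5, the smallest that 2 pairs can give. The differences in steepest gradient over 400 kb were -0.14 proximal of Zfp42, 0.23 proximal of Fat1 and -0.40 distal of Fat1, and 0.37 distal of Zfp42, where the sign turned from -0.93; the cause was not tested. The count of bins higher with auxin without each profile was added after seeing the data. With 2 profiles a group and no read counts, the precision rests on replicate spread, which limma moderates over all genes or bins.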
